A study of Homo sapiens with 6 samples.

Results

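Forkhead factors outside the FOXO class were followed in the human liver cancer cell line SNU449, which derives from a hepatocellular carcinoma, after induction of FOXO1AAA, a form of FOXO1 whose AKT phosphorylation sites are replaced. The 10 genes described are FOXM1, FOXA1, FOXK1, FOXK2, FOXP1, FOXP4, FOXJ2, FOXJ3, FOXN2 and FOXN3, taken by symbol from a table of 13117 genes. All 10 were listed and all 10 reached at least 1 FPKM (fragments per kilobase of transcript scaled to the mapped reads of its library) in all 6 libraries. The Dox group was 3 libraries of pInducer20-FOXO1AAA SNU449 cells given 2 µM doxycycline hydrochloride for 48 h, and the Cont group was 3 libraries of the same construct-bearing cells without doxycycline. Both groups carry the construct and the labels enter WT as the genotype of both. Each of the libraries was made from poly(A) RNA. Doxycycline without the construct was not analysed here, so effects of the drug and of the protein it induces cannot be told apart. The labels do not say whether the 3 libraries of a group were separate cultures. The p-values therefore rest on the spread among these libraries, which may be technical.

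Forkhead proteins share a winged-helix DNA-binding domain, and most of them recognise core sites related to the one that FOXO proteins use. FOXM1 drives genes of G2 and mitosis in dividing cells, and FOXA1 is a pioneer factor that opens chromatin at liver and other endodermal enhancers. FOXK, FOXP and FOXN3 proteins act largely as repressors, FOXK together with SIN3 and BAP1 complexes and FOXP together with CtBP and NuRD.

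Induction was accompanied by rises of FOXA1, FOXP1 and FOXN3, by falls of FOXM1, FOXN2, FOXP4, FOXK1 and FOXJ2, and by no call for FOXK2 and FOXJ3. Thus 8 of the 10 genes changed at a limma adjusted p under 0.05 (Benjamini-Hochberg over the 11526 genes tested), beside 80.4% of all tested genes, so the number of changed forkhead genes is near the background. In direction, 3 of 10 were higher, beside 37.6% of tested genes, and 5 of 10 were lower, beside 42.8%. The Dox and Cont values of the same 8 genes did not overlap, beside 82.1% of tested genes without overlap. The median change of the 10 genes was -0.27 on the log2(FPKM + 1) scale and that of all tested genes was -0.06. By size on that scale, the absolute changes of FOXA1 and FOXP1 lay at percentiles 97.6 and 96.5 of all tested genes, and those of FOXK2 and FOXJ3 at 7.54 and 9.05.

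**Figure D1:**
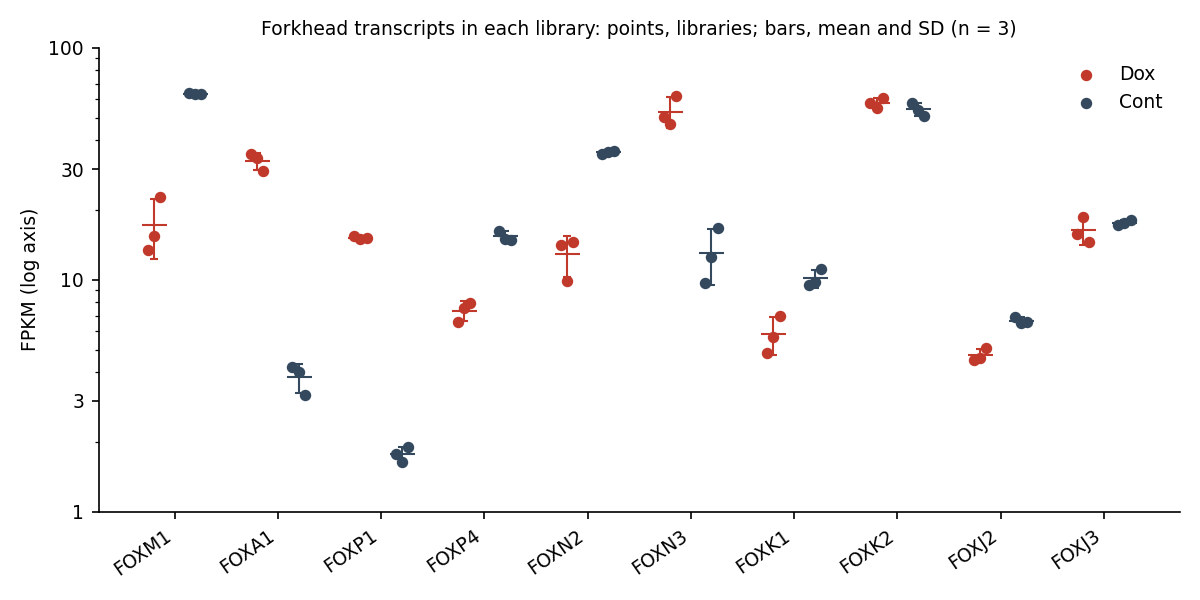
FPKM of the 10 forkhead genes on a log axis, with one point per library and bars for the mean and SD (n = 3); Dox stands left of Cont for each gene. FOXA1 (29.3 to 34.7 in Dox, 3.18 to 4.20 in Cont) and FOXP1 (15.0 to 15.4 in Dox, 1.63 to 1.90 in Cont) are clearly separated, while FOXK2 and FOXJ3 overlap.

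Short stretches of the promoters are shown because they hold the matches to the sites that were searched, on both strands: the FOXO core GTAAACA, the cell cycle homology region as TTTGAA or TTCGAA, and E2F sites as TTCCCGC or TTTGGCGC. RefSeq windows of 300 bases (250 before to 50 after a transcript start, GRCh38.p14) were at hand for 8 of the 10 genes, 15 windows in all, 6 of them for FOXP1 and 3 for FOXJ3. The matched letters are in capitals and all runs are read 5′ to 3′ on the strand of the gene, here the minus strand throughout.
FOXP1 (chr3:71245252-71245281): aactatgttatTGTTTACtttaccatacac
FOXA1 (chr14:37595214-37595243): agcccgctcacTTCCCGCggaggcgctccc
FOXJ3 (chr1:42336075-42336104): gtgagTTCAAAagcgtgTTTGGCGCtgcag
FOXN3 (chr14:89619166-89619415): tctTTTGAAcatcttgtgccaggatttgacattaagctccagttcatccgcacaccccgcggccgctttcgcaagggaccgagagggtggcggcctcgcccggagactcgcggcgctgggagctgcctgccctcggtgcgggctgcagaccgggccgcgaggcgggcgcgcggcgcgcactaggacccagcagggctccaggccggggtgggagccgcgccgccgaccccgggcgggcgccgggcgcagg

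The FOXO core was matched in 1 of the 6 FOXP1 windows, read as its reverse complement and beginning 193 bases before that internal start, and in none of the other windows. Of all 35116 RefSeq windows of this length, 3.42% hold GTAAACA. The cell cycle site TTTGAA was matched in FOXN3, 247 bases before the start, and in 1 FOXJ3 window, where TTTGGCGC follows it. TTTGAA is common, in 15.2% of windows, and TTTGGCGC is in 0.652%. TTCCCGC, in 6.55% of windows, was matched in FOXA1 17 bases past a start that lies inside the GENCODE gene, and TTCGAA, in 1.45%, was matched in none of the 15 windows. FOXM1 and FOXN2 are named only. Such a match is a run of letters and not a measured site.

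FOXM1 (chromosome 12, 2857681 to 2877155, minus strand, GRCh38 by GENCODE 29) had 13.4, 15.5 and 22.8 FPKM in the 3 Dox libraries, against 63.6, 62.9 and 63.0 FPKM in the 3 Cont libraries. All Dox values lay below all Cont values, and the Dox libraries spread more widely than the Cont libraries. The means were 17.2 ± 4.96 FPKM in Dox and 63.2 ± 0.405 FPKM in Cont (SD, n = 3 each), a 3.67-fold fall (log2 change -1.85, SE 0.15, limma adjusted p = 2.07e-06). By mean FPKM, FOXM1 was the most abundant of the 10 transcripts in Cont and the fourth in Dox. In Dox replicate 1, at 13.4 FPKM, it lay below FOXJ3 (15.8), FOXP1 (15.4) and FOXN2 (14.1). In Dox replicate 2, at 15.5 FPKM, it lay below FOXJ3 (18.7). In bulk RNA, fewer cells that express a gene and less of its RNA per cell cannot be told apart.

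Genes that FOXM1 is known to activate in G2 and mitosis were lower as well. Of the 26 listed, 25 were lower in Dox and 1 was higher, beside the 42.8% and 37.6% of all tested genes, with a median log2 change of -2.04. This list and the other gene lists below were chosen with earlier results of these data known, so their counts only describe. AURKB, the Aurora B kinase gene, fell to 6.23 FPKM in Dox, against 74.9 FPKM in Cont (log2 change -3.42, limma adjusted p = 2.49e-08). CDC20, an activator of the anaphase-promoting complex, averaged 24.5 FPKM in Dox and 179 FPKM in Cont (log2 change -2.86, limma adjusted p = 1.93e-07). CENPE, a kinetochore motor gene, was the exception, with 21.0 FPKM in Dox and 11.0 FPKM in Cont (log2 change 0.88). The summed FPKM of the 26 genes was 1040, 1043 and 1420 in Dox replicates 1, 2 and 3, against 3530, 3585 and 3697 in Cont replicates 1, 2 and 3. Dox replicate 3 had both the highest FOXM1 value and the highest sum of the Dox libraries. It also had the lowest FOXO1 value of that group: FOXO1 was at 2.87, 3.50 and 2.01 FPKM in Dox replicates 1, 2 and 3, against 0.741, 0.776 and 0.889 FPKM in Cont. FOXO1 passed the filter through Dox alone, and whether its row holds construct reads is not known. Over all tested genes, Dox replicate 3 was nearer to the Cont libraries (Pearson correlations of 0.847 to 0.854) than Dox replicates 1 and 2 (0.827 to 0.834). FOXN3, which rose, was also highest in Dox replicate 3, at 62.1 FPKM. With 3 libraries a group, no relation between these values was tested.

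The factors that stand upstream of FOXM1 or bind beside it, the MuvB core, B-MYB and E2F genes, had 10 lower and 2 higher of 12 tested, beside 42.8% lower and 37.6% higher among all tested genes, with a median log2 change of -1.02. MYBL2, which encodes B-MYB, fell to 29.1 FPKM in Dox, against 176 FPKM in Cont (log2 change -2.55, limma adjusted p = 3.43e-08). E2F2 was at 0.405 FPKM in Dox and 5.61 FPKM in Cont (log2 change -2.23) and passed the filter on low values through its Cont libraries alone. Its place among the lower genes therefore supports nothing. The count of lower genes was 9 rather than 10 without Cont replicate 1, 2 or 3. The pocket protein gene RBL2 was higher, with 70.5 FPKM in Dox and 48.8 FPKM in Cont (log2 change 0.52, limma adjusted p = 7.75e-05). LIN52, a MuvB subunit gene, was also called higher (7.52 FPKM in Dox and 6.22 FPKM in Cont, limma adjusted p = 0.0479). Under 6 of the settings that keep all libraries, among them quantile normalization and a pseudocount of 0.1, 1 gene of this list rather than 2 was called higher, and likewise without Cont replicate 1, 2 or 3 or Dox replicate 1.

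Of the 5 tested genes around FOXM1 on chromosome 12, 4 were lower and 1 was not called, beside 42.8% lower among all tested genes. They are outside the rule for named genes and were chosen after their values were seen. Neighbours are described for FOXM1 and FOXA1 only, so no pattern across the loci of the 10 genes can be read from them. FKBP4, a co-chaperone gene 52258 bases away, was at 10.1 FPKM in Dox and 47.2 FPKM in Cont (log2 change -2.12, limma adjusted p = 4.60e-09). TEAD4, a Hippo pathway transcription factor gene 82175 bases away on the other side, was at 6.44 FPKM in Dox and 25.7 FPKM in Cont (log2 change -1.84, limma adjusted p = 2.12e-08). RHNO1, a DNA damage response gene whose span overlaps the 5′ end of FOXM1 on the plus strand, was at 39.0 FPKM in Dox and 105 FPKM in Cont (log2 change -1.42, limma adjusted p = 1.18e-06). TULP3, which starts 68 bases beyond the FOXM1 gene on that strand, was at 53.9 FPKM in Dox and 49.3 FPKM in Cont and was not called (limma adjusted p = 0.129). ITFG2 shares 781 exon bases with FOXM1 on the opposite strand and was lower too, with 2.57 FPKM in Dox and 3.57 FPKM in Cont (log2 change -0.35, limma adjusted p = 0.00681), below FOXM1 in both groups. The sources used here do not say whether strand entered the counting, so reads from overlapping exons on opposite strands cannot be told apart.

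FOXA1 (chromosome 14, 37589984 to 37596059, minus strand) had 34.7, 33.5 and 29.3 FPKM in Dox, against 4.20, 4.01 and 3.18 FPKM in Cont. Every Dox value was far above every Cont value. The means were 32.5 ± 2.83 FPKM in Dox and 3.80 ± 0.546 FPKM in Cont (SD, n = 3 each), 8.56-fold higher in Dox by these means. On log2(FPKM + 1) the change was 2.81 (limma adjusted p = 1.04e-08, SE 0.11). TTC6, a tetratricopeptide repeat gene chosen after its values were seen, runs the other way from the 5′ end of FOXA1 and shares 16 exon bases with it. It was at 101 FPKM in Dox and 0.803 FPKM in Cont (log2 change 5.80, limma adjusted p = 5.46e-09). With 1.00, 0.486 and 0.919 FPKM in the Cont libraries, TTC6 met the filter on low values only through Dox. MIPOL1, also chosen after its values were seen and 37623 bases from FOXA1 on the other side, was lower, with 15.0 FPKM in Dox and 21.4 FPKM in Cont (log2 change -0.49, limma adjusted p = 0.00563).

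The paralogue FOXA3 was at 2.51 ± 0.228 FPKM in Dox and 0.451 ± 0.29 FPKM in Cont (SD, n = 3 each; log2 change 1.29, limma adjusted p = 2.41e-05), and it passed the filter through Dox alone. FOXA2 was not called, at 1.23 ± 0.43 FPKM in Dox and 1.46 ± 0.588 FPKM in Cont (limma adjusted p = 0.564). Liver factors that work beside FOXA proteins and liver genes that these bind were thinly represented: 11 of the 20 in the list were in the table and 7 were tested, with 2 higher and 2 lower, beside 37.6% higher and 42.8% lower among all tested genes. IGFBP1, an insulin-repressed liver gene bound by both FOXA and FOXO proteins, was at 93.9 FPKM in Dox and 0.673 FPKM in Cont (log2 change 5.79). CEBPA, a liver differentiation factor, was at 1.24 FPKM in Dox and 0.128 FPKM in Cont (log2 change 0.99). Both of these passed the filter through Dox alone, so their count supports nothing, and it was 0 without any 1 of the Dox libraries. FGB, a fibrinogen chain gene, fell to 8.57 FPKM in Dox, against 170.0 FPKM in Cont (log2 change -4.16). AFP, the fetal liver marker, was at 6.21 FPKM in Dox and 13.4 FPKM in Cont (log2 change -0.95, limma adjusted p = 0.0114). The AFP values of the groups overlapped, with 8.62 FPKM in Dox replicate 2 and 7.34 FPKM in Cont replicate 3. Without Dox replicate 3, 1 gene of this list rather than 2 was called lower. GATA4, another endodermal pioneer factor and named outside the rule after its values were seen, was at 9.34 FPKM in Dox and 9.59 FPKM in Cont (limma adjusted p = 0.735).

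FOXP1 (chromosome 3, 70952817 to 71583993, minus strand) had 15.4, 15.0 and 15.2 FPKM in Dox, against 1.77, 1.63 and 1.90 FPKM in Cont. It was the least abundant of the 10 genes in Cont, and the Dox libraries differed little among themselves. The means were 15.2 ± 0.178 FPKM in Dox and 1.77 ± 0.132 FPKM in Cont (SD, n = 3 each), 8.60-fold higher in Dox by these means. On log2(FPKM + 1) the change was 2.55 (limma adjusted p = 5.11e-09, SE 0.09), which understates a gene this low in Cont. On the deposited log2 values it was 3.11, beside 3.10 for FOXA1. GENCODE 29 gives FOXP1 76 transcripts, and 2539 of its exon bases are shared with another gene on the same strand, so which starts or isoforms carried the rise cannot be read from a value per gene. The internal start whose window holds the FOXO core shown above is 1 of 6 in RefSeq.

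FOXP4 (chromosome 6, 41546426 to 41602384, plus strand) went the other way. It had 6.56, 7.58 and 7.94 FPKM in Dox, against 16.3, 15.0 and 14.9 FPKM in Cont, with no overlap. The means were 7.36 ± 0.716 FPKM in Dox and 15.4 ± 0.776 FPKM in Cont (SD, n = 3 each; log2 change -0.97, SE 0.09, limma adjusted p = 4.50e-06). Within a library, the log2 ratio of FOXP1 to FOXP4 was 1.23, 0.99 and 0.94 in Dox, against -3.20, -3.19 and -2.97 in Cont. In FPKM, FOXP1 was therefore the more abundant of both paralogues in every Dox library and the less abundant in every Cont library. The ratio shifted 18.0-fold (difference 4.17 in log2, exact permutation test, two-sided p = 0.1, 0.1 adjusted over the 4 pairs). With 3 against 3 libraries, 0.1 is the smallest p this test can give, and a ratio within a library does not depend on the scaling of that library. Which paralogue is the higher does depend on the gene lengths behind FPKM, which the sources used here do not give. A fixed length per gene cancels out of the shift.

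FOXP2, another paralogue, known for its part in speech and brain development, was at 11.2 ± 2.04 FPKM in Dox and 0.603 ± 0.182 FPKM in Cont (SD, n = 3 each; log2 change 2.92, limma adjusted p = 5.06e-08), and it passed the filter through Dox alone. FOXP3, the regulatory T cell factor, stayed under the filter, at 0.234 FPKM in Dox and 0.196 FPKM in Cont. Of 12 tested genes of CtBP and NuRD, corepressors that FOXP proteins recruit, 12 were lower and 0 were higher, beside 42.8% lower and 37.6% higher among all tested genes, with a median log2 change of -0.80. The count of lower genes was 9 to 12 over the settings that keep all libraries, 9 of them in TPM (FPKM rescaled to the same sum in every library) computed without mitochondrially encoded genes. MTA2, a NuRD subunit gene, was at 17.9 FPKM in Dox and 53.7 FPKM in Cont (log2 change -1.54, limma adjusted p = 1.74e-07). GATAD2A, another NuRD subunit gene, was at 89.1 FPKM in Dox and 248 FPKM in Cont (log2 change -1.46, limma adjusted p = 4.04e-08).

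**Figure D2:**
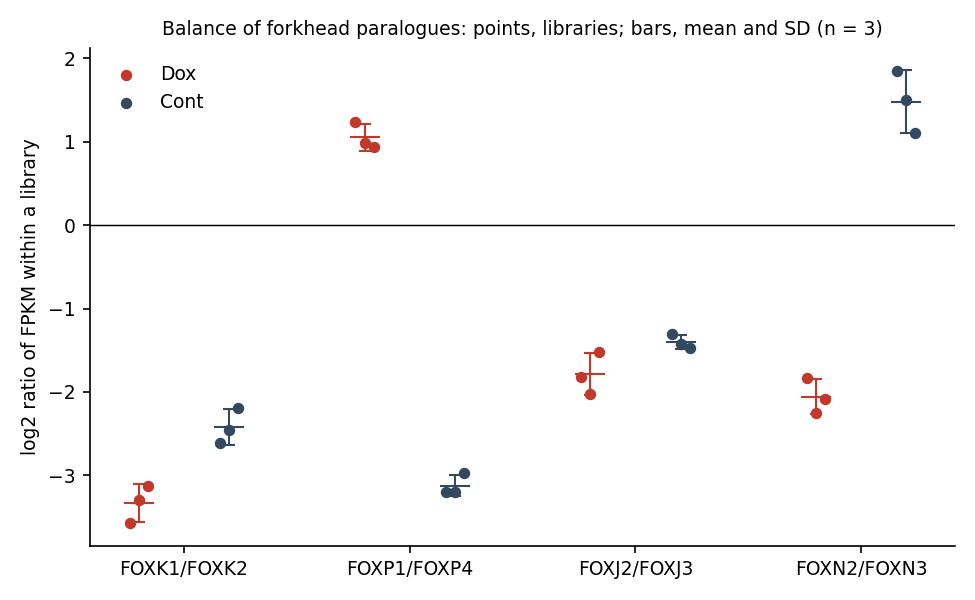
Log2 ratio of the FPKM of 4 paralogue pairs within each library, with points for libraries and bars for the mean and SD (n = 3); Dox stands left of Cont. FOXP1/FOXP4 and FOXN2/FOXN3 lie on opposite sides of 0 in the groups, with differences of 4.17 and -3.54, while the FOXK and FOXJ pairs shift by -0.91 and -0.38.

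FOXN3 (chromosome 14, 89124871 to 89619149, minus strand), a checkpoint suppressor and transcriptional repressor, had 50.2, 46.9 and 62.1 FPKM in Dox, against 9.72, 12.6 and 16.7 FPKM in Cont. The groups did not overlap, and Cont replicate 3 was the highest of its group. The means were 53.1 ± 7.98 FPKM in Dox and 13.0 ± 3.51 FPKM in Cont (SD, n = 3 each), 4.08-fold higher in Dox (log2 change 1.97, limma adjusted p = 2.52e-06, SE 0.17). Its exons share 832 bases with an opposite-strand long noncoding gene and 282 bases with a processed transcript on the same strand. Neither of these was analysed here.

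FOXN2 (chromosome 2, 48314637 to 48379294, plus strand), its close relative, had 14.1, 9.87 and 14.6 FPKM in Dox, against 34.9, 35.5 and 35.8 FPKM in Cont. All Dox values lay below the Cont values, with Dox replicate 2 the lowest. The means were 12.9 ± 2.60 FPKM in Dox and 35.4 ± 0.443 FPKM in Cont (SD, n = 3 each), a 2.76-fold fall (log2 change -1.41, SE 0.13, limma adjusted p = 3.46e-06). The log2 ratio of FOXN2 to FOXN3 was -1.83, -2.25 and -2.09 in Dox, against 1.85, 1.50 and 1.10 in Cont. In FPKM, the balance of this pair thus inverted as well, by 11.6-fold (difference -3.54 in log2, exact permutation test, two-sided p = 0.1, 0.1 adjusted over the 4 pairs). Genes named as partners or targets of FOXN3 had 6 lower and 1 higher of 7 tested, beside 42.8% lower and 37.6% higher among all tested genes, with a median log2 change of -0.65. MYC was at 5.47 FPKM in Dox and 59.8 FPKM in Cont (log2 change -3.21), and the kinase gene PIM2 was at 5.07 FPKM in Dox and 16.7 FPKM in Cont (log2 change -1.54, limma adjusted p = 8.62e-08). MEN1, the gene of the FOXN3 partner menin, was higher, with 17.1 FPKM in Dox and 12.4 FPKM in Cont (log2 change 0.43, limma adjusted p = 0.00176).

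FOXK1 (chromosome 7, 4682309 to 4771443, plus strand), which with FOXK2 has been linked to glycolysis and autophagy genes, had 4.85, 5.64 and 6.96 FPKM in Dox, against 9.48, 9.77 and 11.1 FPKM in Cont. The groups did not overlap. The means were 5.82 ± 1.07 FPKM in Dox and 10.1 ± 0.891 FPKM in Cont (SD, n = 3 each; log2 change -0.72, SE 0.12, limma adjusted p = 0.000358).

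FOXK2 (chromosome 17, 82519713 to 82644662, plus strand) had 57.6, 55.2 and 61.0 FPKM in Dox, against 58.0, 53.8 and 50.9 FPKM in Cont, and the groups overlapped. The means were 57.9 ± 2.89 FPKM in Dox and 54.2 ± 3.54 FPKM in Cont (SD, n = 3 each), and the log2 change of 0.09 had a 95% interval of -0.07 to 0.26 (limma adjusted p = 0.253). Its sign held under every setting run, but it was called higher in TPM (0.21, limma adjusted p = 0.0198), in TPM with the mitochondrially encoded genes left out (0.37, limma adjusted p = 0.000547), with median-of-ratios scaling (0.20, limma adjusted p = 0.0285) and under quantile normalization (0.28, limma adjusted p = 0.00305). Its exons share 1190 bases with an opposite-strand gene not analysed here. The log2 ratio of FOXK1 to FOXK2 was -3.57, -3.29 and -3.13 in Dox, against -2.61, -2.46 and -2.19 in Cont, without overlap (difference -0.91, exact permutation test, two-sided p = 0.1, 0.1 adjusted over the 4 pairs).

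The partners and glycolytic targets of FOXK proteins had 5 higher and 10 lower of 16 tested, beside 37.6% higher and 42.8% lower among all tested genes, with a median log2 change of -0.45. The share of higher genes is thus near the background. PDK1, a kinase gene that restrains pyruvate entry into mitochondria, was at 267 FPKM in Dox and 36.6 FPKM in Cont (log2 change 2.85, limma adjusted p = 1.45e-08). OGT, the O-GlcNAc transferase gene, was at 229.9 FPKM in Dox and 41.2 FPKM in Cont (log2 change 2.45, limma adjusted p = 1.69e-09). ENO1, an enolase gene, was at 264 FPKM in Dox and 1567 FPKM in Cont (log2 change -2.57), and PFKP, a phosphofructokinase gene, at 58.1 FPKM in Dox and 315 FPKM in Cont (log2 change -2.42, limma adjusted p = 3.52e-09). The corepressor genes SIN3A and SIN3B differed in direction. SIN3A was at 8.65 FPKM in Dox and 13.1 FPKM in Cont (log2 change -0.55, limma adjusted p = 8.08e-05). SIN3B was at 16.0 FPKM in Dox and 11.5 FPKM in Cont (log2 change 0.45, limma adjusted p = 0.00119); both were picked after their values were seen.

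FOXJ2 and FOXJ3 encode related transcriptional activators, and in mouse FOXJ3 acts in muscle and in the germ line. FOXJ2 (chromosome 12, 8032703 to 8055503, plus strand) had 4.49, 4.60 and 5.06 FPKM in Dox, against 6.93, 6.53 and 6.54 FPKM in Cont, with no overlap. The means were 4.71 ± 0.303 FPKM in Dox and 6.67 ± 0.23 FPKM in Cont (SD, n = 3 each; log2 change -0.43, SE 0.09, limma adjusted p = 0.00127). The call ended in TPM with the mitochondrially encoded genes left out (-0.20, limma adjusted p = 0.0783).

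FOXJ3 (chromosome 1, 42176539 to 42335877, minus strand) had 15.8, 18.7 and 14.5 FPKM in Dox, against 17.2, 17.6 and 18.1 FPKM in Cont. The Dox values lay on both sides of the Cont values. The log2 change of -0.11 had a 95% interval of -0.33 to 0.10 (limma adjusted p = 0.295), and its sign turned in TPM with the mitochondrially encoded genes left out (0.16, limma adjusted p = 0.194). The log2 ratio of FOXJ2 to FOXJ3 was -1.81, -2.02 and -1.52 in Dox, against -1.31, -1.43 and -1.47 in Cont. These values did not overlap but came close, with a difference of -0.38 (exact permutation test, two-sided p = 0.1, 0.1 adjusted over the 4 pairs), which shrank to -0.10 with GC content and length taken out. In that fit FOXJ3 was called lower (-0.31, limma adjusted p = 0.0125).

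**Figure D3:**
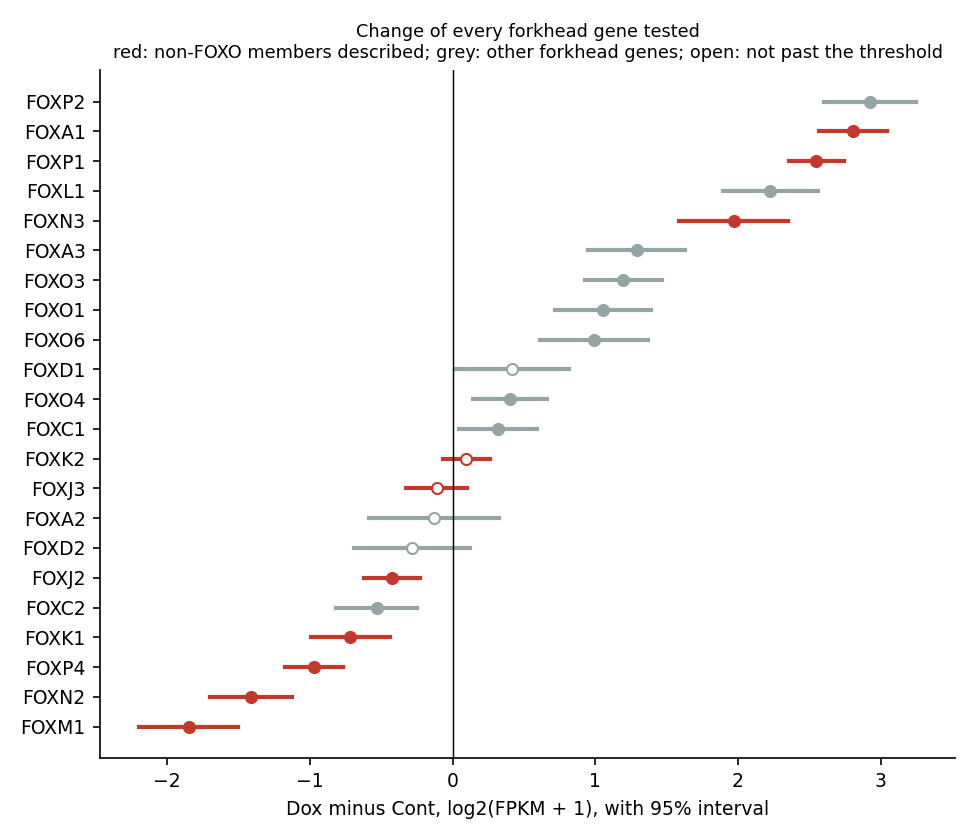
Change of every forkhead gene tested, given as the log2(FPKM + 1) difference of Dox from Cont with 95% limma intervals; red marks the 10 genes described, grey the 12 other forkhead genes tested, and open points did not pass the threshold. FOXP2, FOXA1 and FOXP1 are at the upper end (2.92, 2.81 and 2.55), and FOXN2 and FOXM1 at the lower end (-1.41 and -1.85).

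The order of the mean levels changed between groups. In Dox it was FOXK2, FOXN3, FOXA1, FOXM1, FOXJ3, FOXP1, FOXN2, FOXP4, FOXK1 and FOXJ2, whereas in Cont it was FOXM1, FOXK2, FOXN2, FOXJ3, FOXP4, FOXN3, FOXK1, FOXJ2, FOXA1 and FOXP1. In Dox, FOXK2 and FOXN3 overlapped in their library values, as did FOXM1 with FOXJ3, FOXJ3 with FOXP1, FOXP4 with FOXK1, and FOXK1 with FOXJ2. In Cont, FOXP4 overlapped with FOXN3, and FOXN3 with FOXK1. The other neighbours in either order did not overlap. Beyond neighbours, FOXM1 overlapped with FOXP1 and FOXN2 in Dox, and FOXJ3 with FOXN2. The summed FPKM of the 10 genes hardly differed, at 223.0 ± 14.4 in Dox and 221 ± 1.68 in Cont (SD, n = 3 each), while the members' shares of it differed: FOXM1 made up 7.66 ± 1.72% of this sum in Dox and 28.6 ± 0.184% in Cont.

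FPKM is a level per length, so shares of the summed FPKM of the 33 forkhead rows in the table could be formed. FOXM1 made up 4.05 ± 1.45% of this pool in Dox and 21.9 ± 0.233% in Cont, and FOXN2 2.99 ± 0.696% in Dox and 12.3 ± 0.0973% in Cont (SD, n = 3 each). FOXN3 made up 12.4 ± 2.67% in Dox and 4.51 ± 1.20% in Cont, FOXA1 7.51 ± 0.188% in Dox and 1.32 ± 0.195% in Cont, and FOXP1 3.53 ± 0.225% in Dox and 0.614 ± 0.0447% in Cont. For each of the 10 genes the shares of this 33-row pool in Dox and Cont did not overlap (exact permutation test, two-sided p = 0.1, also 0.1 adjusted over the 10 genes, the smallest possible). A share also moves with the size of the pool. In FPKM itself 8 of the 10 genes did not overlap, beside 82.1% of all tested genes, and FOXK2 and FOXJ3 overlapped. The whole pool was larger in Dox, with 432 ± 28.5 FPKM in Dox and 288 ± 1.34 FPKM in Cont, and FOXL1 held 33.7 ± 5.34% of it in Dox and 10.4 ± 0.955% in Cont. The 10 genes together thus held 51.9 ± 6.75% in Dox and 76.8 ± 0.702% in Cont. Among the 10 genes alone, FOXK2 made up 26.0 ± 0.543% in Dox and 24.5 ± 1.59% in Cont, so its lower share of the whole pool turned with the choice of the pool. On that basis FOXJ3 made up 7.37 ± 1.37% in Dox and 7.97 ± 0.208% in Cont, a difference of -0.60 points against -2.35 points in the whole pool. The differences of the rising genes were larger there than in the whole pool, at 12.9 against 6.19 points for FOXA1, 17.8 against 7.88 points for FOXN3 and 6.03 against 2.91 points for FOXP1.

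**Figure D4:**
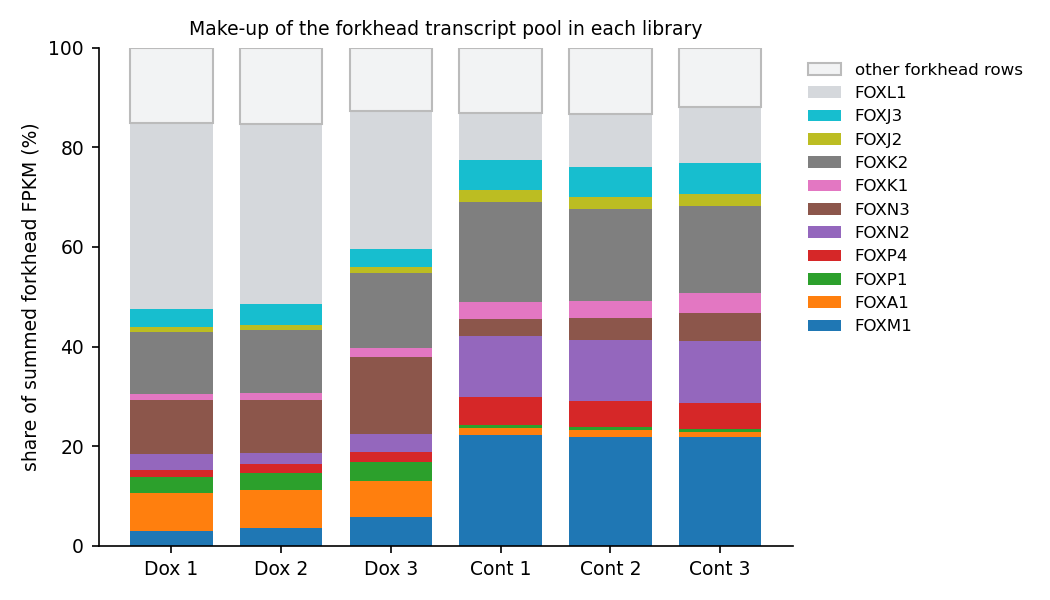
Share of each forkhead gene in the summed FPKM of all forkhead rows, one bar per library, Dox libraries left of Cont libraries. FOXM1 takes 4.05% in Dox and 21.9% in Cont, FOXN2 2.99% in Dox and 12.3% in Cont, and FOXL1 33.7% in Dox and 10.4% in Cont.

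Of the 34 human forkhead symbols outside the 10 genes, 20 were listed and 12 were tested, with 8 higher, 1 lower and 3 not called, beside 37.6% higher and 42.8% lower among all tested genes; 3 further rows beyond these symbols, of the FOXD4 and FOXO3 copies, share sequence with near-identical genes and stayed under the filter. Of the 8 higher, FOXP2, FOXA3, FOXO1 and FOXO6 passed the filter through Dox alone, so this count supports nothing; it was 3 without Dox replicate 1, 3 without Dox replicate 2 and 5 without Dox replicate 3. FOXL1, a mesenchymal factor of the gut and liver, was at 146 ± 31.8 FPKM in Dox and 30.1 ± 2.89 FPKM in Cont (SD, n = 3 each; log2 change 2.23, limma adjusted p = 3.86e-07). FOXC2 was lower, at 7.39 ± 0.995 FPKM in Dox and 11.2 ± 1.74 FPKM in Cont (log2 change -0.53, limma adjusted p = 0.00316), while its paralogue FOXC1 was at 3.30 FPKM in Dox and 2.46 FPKM in Cont (log2 change 0.32, limma adjusted p = 0.0363). FOXD1 was at 12.7 FPKM in Dox and 9.13 FPKM in Cont and missed the threshold (limma adjusted p = 0.0522). In the FOXO class, FOXO1, FOXO3, FOXO4 and FOXO6 had log2 changes of 1.06, 1.20, 0.40 and 0.99; the table does not show whether the FOXO1 row holds construct reads.

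Transcript composition moved with the changes across all genes. By GC content of the longest GENCODE 29 transcript, the lowest tertile of tested genes (up to 43.4% GC) had a median log2 change of 0.19 and the highest tertile (from 53.3%) one of -0.26. By length, the shortest tertile (up to 2839 bases) had a median of -0.27 and the longest tertile (from 4743 bases) one of 0.13. Of the falling forkhead genes, FOXM1 (55.6% GC), FOXP4 (62.9%) and FOXK1 (57.4%) lie in the GC-rich tertile, but FOXN2 has 34.3% GC. FOXP1 has 40.3% GC and a longest transcript of 8994 bases, FOXN3 has 44.1% and FOXA1 51.3%. With a smooth of GC content and length taken out of each library, the 8 calls held: FOXA1 was at 3.07, FOXP1 at 2.17, FOXN3 at 1.77, FOXM1 at -1.57 and FOXN2 at -1.95. In that fit FOXK2 was called higher (0.26, limma adjusted p = 0.00753) and FOXJ3 lower, as given above.

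**Figure D5:**
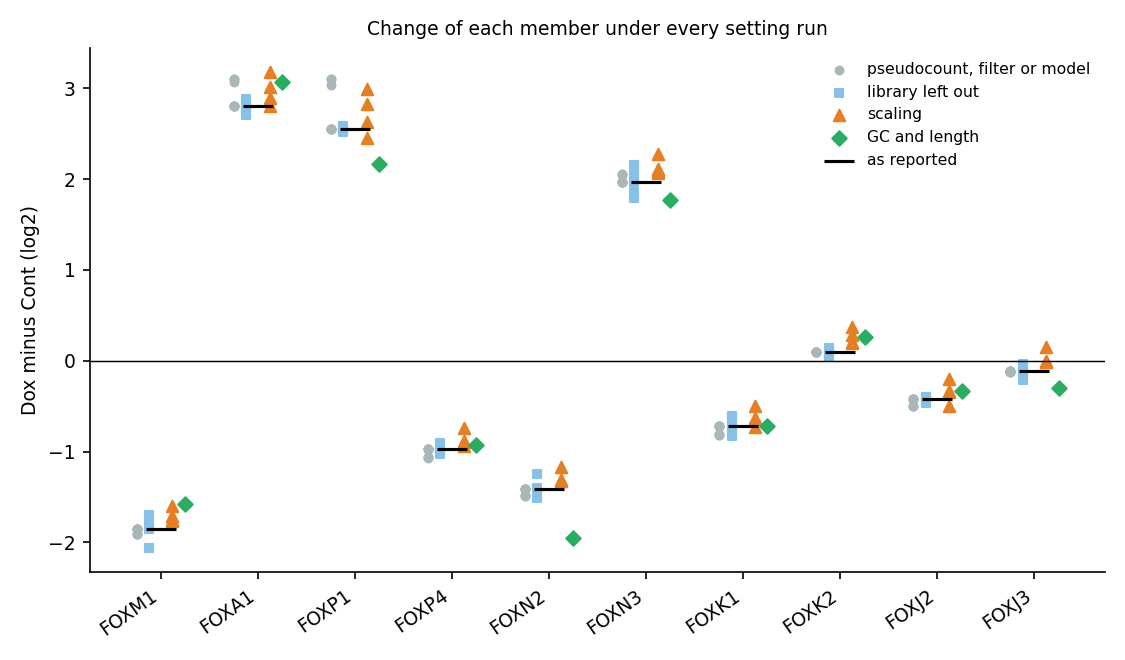
Log2 change of each of the 10 genes, Dox minus Cont, under every setting run: a black bar for the value as reported and symbols for other pseudocounts, filters and models, for each library left out in turn, for other scalings and with GC content and length taken out. The 3 rising and 5 falling genes keep their side of 0, FOXA1 between 2.71 and 3.18, whereas FOXJ3 crosses 0.

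The libraries held an estimated 28400000 to 47300000 reads, from the steps of 27 to 92 low values a library. On that rough scale the 10 genes had from 307 reads (FOXA1 in a Cont library) to 18619 reads (FOXN3 in a Dox library). Genes encoded by the mitochondrial genome took 13.2 to 14.7% of the summed FPKM in Dox and 3.00 to 4.67% in Cont, and their part in the changes of other genes was not tested beyond the TPM values given above. Of 10 hepatocyte markers 3 were in the table, ALB, AFP and FGB, with a summed 13.5 to 18.9 FPKM in Dox and 143 to 207 FPKM in Cont. Within that sum ALB went the other way, at 0.850 to 1.71 FPKM in Dox and 0.0941 to 0.571 FPKM in Cont. The 4 mesenchymal markers VIM, FN1, CDH2 and ZEB1 summed to 309 to 367 FPKM in Dox and 954 to 969 FPKM in Cont, a sum made up mostly of VIM. In it FN1 was at 7.27 to 8.17 FPKM in Dox and 1.08 to 1.92 FPKM in Cont, and ZEB1 at 10.9 to 12.5 FPKM in Dox and 7.26 to 7.91 FPKM in Cont, opposite to VIM. Epithelial markers (3 of 5 listed) summed to 32.8 to 34.5 FPKM in Dox and 122 to 127 FPKM in Cont, and stellate or fibroblast markers (3 of 5 listed) to 42.8 to 59.8 FPKM in Dox and 204 to 232 FPKM in Cont. The stellate or fibroblast sum was made up mostly of COL1A2. Within it ACTA2 went the other way, at 1.54 to 2.70 FPKM in Dox and 1.09 to 1.47 FPKM in Cont. The part of these shifts in the forkhead values was not tested. Immune markers were represented by 1 of 4 genes and endothelial markers by 2 of 4, summing to under 3 FPKM in all libraries.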

How the data were processed

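The table that the authors deposited covers 13117 genes in 6 poly(A) libraries; its values are log2 FPKM with a small offset, from -8.59 to 13.9. FastQC 0.11.7 and the build GRCh38 appear in the submitters' processing notes; the aligner, counter and annotation are not given in the sources used here. One Cont sample (replicate 1) is described with the column name of replicate 2, so columns were matched by title. Deposited log2 values were raised back to linear FPKM with base 2; the planned test had assumed linear FPKM. limma 3.58.1 (R 4.3.3, trend, two-sided, Benjamini-Hochberg) was run on log2(FPKM + 1) for the 11526 genes with at least 1 FPKM in at least 3 libraries; log2 changes are Dox minus Cont and understate low genes. The fit was tested on simulated data in which most genes were unchanged. With 80.4% of tested genes called here, that simulation does not cover a shift of this extent. Ratios and shares used exact permutation tests (scipy 1.17.1). Of 13117 symbols, 12930 matched 1 GENCODE 29 gene. Depth came from 307 genes with a shared lowest value, taken as 0 reads plus an offset worth 1.58 to 2.63 reads: the 27 to 92 values above it in a library, up to 20 reads, lay within 0.05 of whole reads; total reads then follow from the longest transcript, which 40.1% of these genes match within 2%. Genes were named by rule: the 10 members, other forkhead genes, and up to 2 rises and 2 falls of each list; neighbouring genes, SIN3A, SIN3B, GATA4 and markers are named outside it. Members and lists were chosen with earlier results of these data known. The lists are not separate, since RBBP4, HDAC1 and SIN3A recur between them.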

Additional observations from a re-analysis of the deposited data

How the results depend on the processing

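Alternatives were pseudocounts of 0.1 and 0.01, the deposited log2 values, no filter, a filter at 5 FPKM, TPM with and without mitochondrially encoded genes, quantile normalization, median-of-ratios scaling, robust moderation, no trend, a replicate block, GC content and length taken out, and each library left out. FOXA1, FOXP1, FOXN3, FOXM1, FOXN2, FOXP4 and FOXK1 kept direction and call under all of them. FOXJ3 turned to 0.16 in TPM without mitochondrially encoded genes, and was called lower (-0.31) with GC content and length taken out; FOXJ2 missed the threshold in that TPM, and FOXK2 was called higher under 5 alternatives; without any 1 library no call of the 10 genes changed. The change in the share of FOXK2 turned from -5.36 to 1.49 percentage points among the 10 genes alone, a pool chosen after seeing the data. The 4 paralogue ratios kept their direction under the alternatives run for them, including the lowest value of each library subtracted, though FOXJ2/FOXJ3 shrank to -0.10 with GC content and length taken out. Higher genes made up 46.7% of all calls as reported and 60.2% in TPM without mitochondrially encoded genes, where the median change of all genes was 0.22. Replicate numbers are shared by the groups, but same-numbered libraries did not deviate together (correlations of 0.04, -0.0048 and 0.08), and not every library correlated best with its own number; with the replicate block 4335 genes were higher and 4937 lower, against 4329 and 4936 without it, and no call of the 10 genes changed. The number of libraries, 3 a group, limits the exact tests to p = 0.1.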
